A study of Medicago truncatula with 9 samples.

Results

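Oleosins and caleosins, the proteins that coat seed oil bodies, were followed across mature seeds of 3 genotypes of Medicago truncatula, a model legume. The members were all loci whose deposited description holds the words oleosin, caleosin, steroleosin or oil body. This gave 9 of 36695 loci, 6 described as oleosins and 3 as caleosins, and 0 described as steroleosins or by the words oil body. The genotypes were the wild type R108 and the lines NF10440 (hsfa9-1) and NF13157 (hsfa9-2), which carry Tnt1 retrotransposon insertions in the R108 background, with 3 libraries of 50 seeds from different plants per genotype. For every genotype the sources list 16 h of light, drying of the pods at 43% relative humidity and storage at 20 °C. Other agents or treatments are not given. Tnt1 lines as a rule carry further insertions elsewhere in the genome, and whether these lines were backcrossed is not given in the sources used here. Each mutant genotype is 1 line, so that effects of the named allele and of other insertions in the line cannot be told apart.

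Seed oil bodies are droplets of triacylglycerol, held in a single layer of phospholipid and covered by a protein coat. Oleosins are small structural proteins that anchor in the droplet through a long hydrophobic hairpin and keep droplets from fusing as the seed dries and rehydrates. Caleosins share the hairpin and add a calcium-binding domain and, for several plant members, peroxygenase activity, which transfers oxygen from fatty acid hydroperoxides. HSFA9 is a heat stress transcription factor known from sunflower and Arabidopsis seeds, where it acts during maturation on chaperone genes.

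Transcript levels are FPKM, fragments scaled by transcript length and by the mapped fragments of the library, so that levels of different loci may be set side by side. Libraries listed between 922800.58 and 981284.54 FPKM in all, and their relative depth, estimated from the FPKM values, lay between 0.991 and 1.009 of the mean. Pearson correlations across loci were 0.987 to 0.993 within a genotype and 0.907 to 0.921 between a mutant and R108. Of the 29 loci described as heat stress transcription factors, 0 are named HSFA9, so the targeted gene was not used to check the labels. The hsfa9-2 replicate 1 library stood apart. At 19 loci nearly lost from hsfa9-1 it kept a median of 5.06% of the R108 level, against 0.596% and 0.673% in the other hsfa9-2 libraries, and results are given below without it where they differ. Mature seed markers (storage globulins, LEA and seed maturation proteins) summed to between 58522.38 and 92429.49 FPKM over the libraries, and nodule markers to between 73.95 and 96.4. In what follows, errors are SD over 3 libraries, each change compares genotype means of log2(FPKM + 1), its interval is the 95% interval, and adjusted p-values come from limma over all 17508 tested loci.

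The most abundant oil body transcript was Medtr1g073640, described as caleosin CLO1-1. It stood at 5982.56, 5953.1 and 6387.52 FPKM in the R108 libraries, which placed it between the 8th and the 10th most abundant of all loci. The oleosin Medtr6g005040 followed at 1521.36 ± 268 FPKM and rank 57 of the R108 means. The oleosins Medtr3g109190 and Medtr7g033775 came next at 1146.74 ± 85.4 and 1145.17 ± 81.2 FPKM. The ranges of these last 2 overlapped in R108, so their order is not resolved there. The other oleosins were less abundant, at 274.3 ± 26.3 FPKM for Medtr1g090250, 158 ± 15.2 for Medtr4g105200 and 27.9 ± 5.30 for Medtr4g111770. A further caleosin, Medtr1g032160, stood at 50.9 ± 3.61 FPKM. All other neighbours in this R108 order were separated by their ranges.

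The remaining caleosin, Medtr7g115490, which shares the description CLO1-1, was listed at 0 in 8 of 9 libraries and at 0.08 FPKM in hsfa9-1 replicate 2. It failed the filter of at least 1 FPKM in at least 3 libraries and was not tested, so 8 of the 9 loci entered the tests. Each member has 1 transcript model. Through the protein accession in their descriptions, 8 members matched 8 different genes of the RefSeq annotation (MtrunA17r5.0), and Medtr7g115490 is named only. How the authors' quantification divided reads between near-identical copies was not tested.

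In hsfa9-1, oil body transcripts moved in both directions against R108. In whole-seed libraries, fewer or more cells of a type and less or more transcript per cell cannot be told apart. Of the 8 tested members 5 rose, where 27.6% of all tested loci did, and 2 fell, where 31.9% of all did. The groups did not overlap at 7 of 8 members, against 67.1% of tested loci. The median change of the members was 0.40, and that of all tested loci was −0.04. In hsfa9-2 the same split was seen, with 5 rises against 25.8% of all loci and 2 falls against 36.5%, and the groups did not overlap at 6 of 8 members, against 66.4%. The median change was 0.43 for the members and −0.10 for all tested loci. Median centring moved the median of all loci by more than 0.1 in hsfa9-2, to 0.03, and turned the split of all calls from 4511 higher and 6391 lower to 5634 higher and 5070 lower. The same 5 members were higher and the same 2 lower in both mutants. The mutants were each compared with the same 3 R108 libraries, so these counts are not independent of each other.

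**Figure D1:**
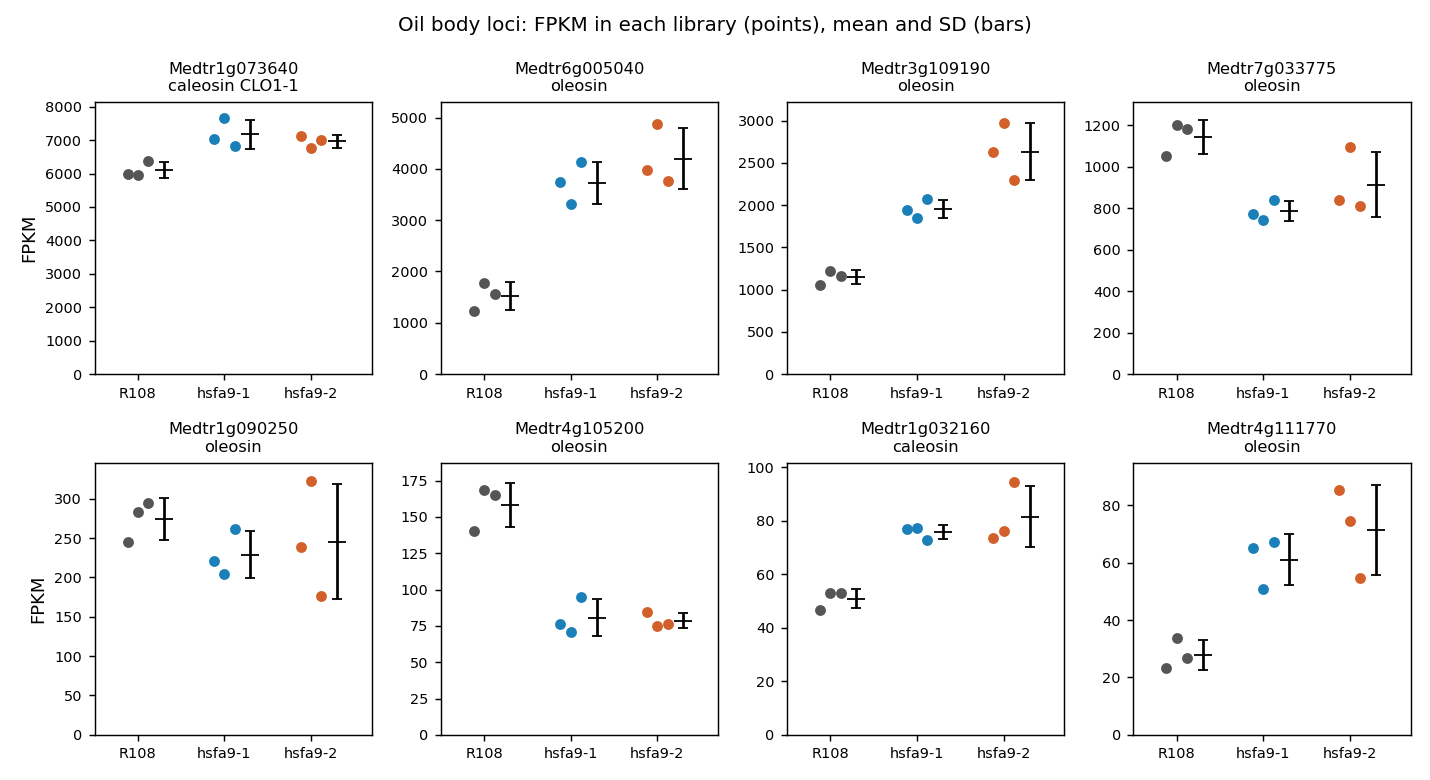
FPKM of the 8 tested oil body loci (y axis, from 0) in the 3 libraries of each genotype (points, x axis), with the mean and SD of each genotype beside them. Medtr6g005040 lies between 1237.15 and 1769.72 in R108 and between 3319.74 and 4871.19 in the mutants, while Medtr4g105200 lies between 140.65 and 168.67 in R108 and at no more than 95.15 in the mutants.

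Among the oleosins, Medtr6g005040 had the largest rise of the members in both mutants. It was listed at 1237.15, 1769.72 and 1557.2 FPKM in R108, at 3736.13, 3319.74 and 4132.49 in hsfa9-1 and at 3969.59, 4871.19 and 3761.39 in hsfa9-2. All mutant libraries were above all R108 libraries. The change was 1.30 ± 0.144 (SE) in hsfa9-1 (adjusted p = 2.30e-05), a 2.45-fold higher mean, and 1.47 ± 0.144 (SE) in hsfa9-2 (adjusted p = 8.61e-06), a 2.76-fold higher mean. With this the locus moved from rank 57 among all loci in R108 to ranks 20 and 16 of the mutants' means.

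The oleosin Medtr3g109190 also rose in both lines. Its values were 1054.28, 1222.78 and 1163.17 FPKM in R108, 1947.93, 1845.48 and 2068.66 for hsfa9-1, and 2623.55, 2973.01 and 2301.68 for hsfa9-2. The 3 genotypes did not overlap, with R108 lowest and hsfa9-2 highest. The change was 0.77 (interval 0.55 to 0.99, adjusted p = 7.41e-05) in hsfa9-1 and 1.19 (0.97 to 1.42, adjusted p = 2.69e-06) in hsfa9-2.

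Medtr4g111770, the least abundant oleosin, rose from a low level. It was listed at 23.34, 33.71 and 26.65 FPKM in R108, at 65.11, 50.79 and 67.12 in hsfa9-1 and at 85.5, 74.39 and 54.61 in hsfa9-2. Every mutant library was above every R108 library, and the hsfa9-2 libraries spread most. The changes were 1.11 (interval 0.711 to 1.502, adjusted p = 0.000337) and 1.32 (0.92 to 1.71, adjusted p = 9.19e-05).

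Other oleosins fell. Medtr4g105200 was listed at 140.65, 168.67 and 164.88 FPKM in R108, at 76.01, 70.89 and 95.15 in hsfa9-1 and at 84.48, 74.72 and 76.25 in hsfa9-2. No mutant library reached the lowest R108 library. The change was −0.97 (interval −1.22 to −0.72, adjusted p = 3.15e-05) in hsfa9-1 and −0.998 (−1.25 to −0.75, adjusted p = 2.31e-05) in hsfa9-2, with means at 0.510 and 0.497 of the R108 mean.

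Medtr7g033775, as abundant as Medtr3g109190 in R108, fell while that locus rose. It was listed at 1052.29, 1202.77 and 1180.46 FPKM in R108, at 773.09, 743.56 and 838.38 in hsfa9-1 and at 838.08, 1095.79 and 809.44 in hsfa9-2. The hsfa9-1 libraries were all below R108, whereas hsfa9-2 replicate 2 lay within the R108 range. The change was −0.54 in hsfa9-1 (interval −0.79 to −0.29, adjusted p = 0.00185) and −0.34 in hsfa9-2 (−0.59 to −0.08, adjusted p = 0.0243). The hsfa9-2 call ended after median centring (−0.21, adjusted p = 0.120), and without R108 replicate 2 (adjusted p = 0.0775), R108 replicate 3 (0.0724), hsfa9-2 replicate 1 (0.0784) or hsfa9-2 replicate 3 (0.0843). Over all alternatives the adjusted p lay between 0.00103 and 0.120.

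Medtr1g090250 was the oleosin without a call. Its values were 244.65, 283.49 and 294.72 FPKM in R108, 221.22, 204.02 and 261.81 for hsfa9-1, and 238.48, 321.87 and 176.34 for hsfa9-2. The hsfa9-2 libraries enclosed the whole R108 range. The differences were −0.26 (interval −0.67 to 0.15, adjusted p = 0.245) and −0.20 (−0.61 to 0.21, adjusted p = 0.376), so a fall of a size like that of Medtr7g033775 lies within both intervals. Without hsfa9-2 replicate 2 the difference in hsfa9-2 was −0.41 (adjusted p = 0.0351), and without hsfa9-2 replicate 3 it was 0.02 (adjusted p = 0.92; 0.0351 to 0.92 over all alternatives).

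Of the caleosins, Medtr1g032160 rose in both mutants. It was listed at 46.76, 52.93 and 53.1 FPKM in R108, at 77.16, 77.41 and 72.93 in hsfa9-1 and at 73.74, 76.38 and 94.59 in hsfa9-2. All mutant libraries lay above R108, with hsfa9-2 replicate 3 the highest. The changes were 0.57 (interval 0.36 to 0.78, adjusted p = 0.000437) and 0.66 (0.45 to 0.87, adjusted p = 0.000139).

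The abundant caleosin Medtr1g073640 showed the smallest called change. Beside the R108 values given above it was listed at 7034.56, 7667.28 and 6829.47 FPKM in hsfa9-1 and at 7137.39, 6749.96 and 7014.9 in hsfa9-2. No mutant library overlapped R108, and the means were 1.18-fold and 1.14-fold higher. The change was 0.23 in hsfa9-1 (interval 0.07 to 0.40, adjusted p = 0.0202), and the call ended without R108 replicate 2 (adjusted p = 0.0652) or hsfa9-1 replicate 2 (0.0885; 0.00639 to 0.0885 over all alternatives). The change was 0.19 in hsfa9-2 (interval 0.03 to 0.36, adjusted p = 0.0450). This call ended with any 1 of R108 replicates 1, 2 and 3, hsfa9-1 replicates 1 and 3 or hsfa9-2 replicates 1, 2 and 3 left out (adjusted p = 0.0502 to 0.122, and 0.00485 to 0.122 over all alternatives), and in fits of the 2 compared groups alone (0.0752) or with a replicate block (0.0742). Without hsfa9-2 replicate 1, 4 members were called higher and 1 lower in hsfa9-2, in place of 5 and 2, and without hsfa9-2 replicate 2 it was 4 and 3.

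**Figure D2:**
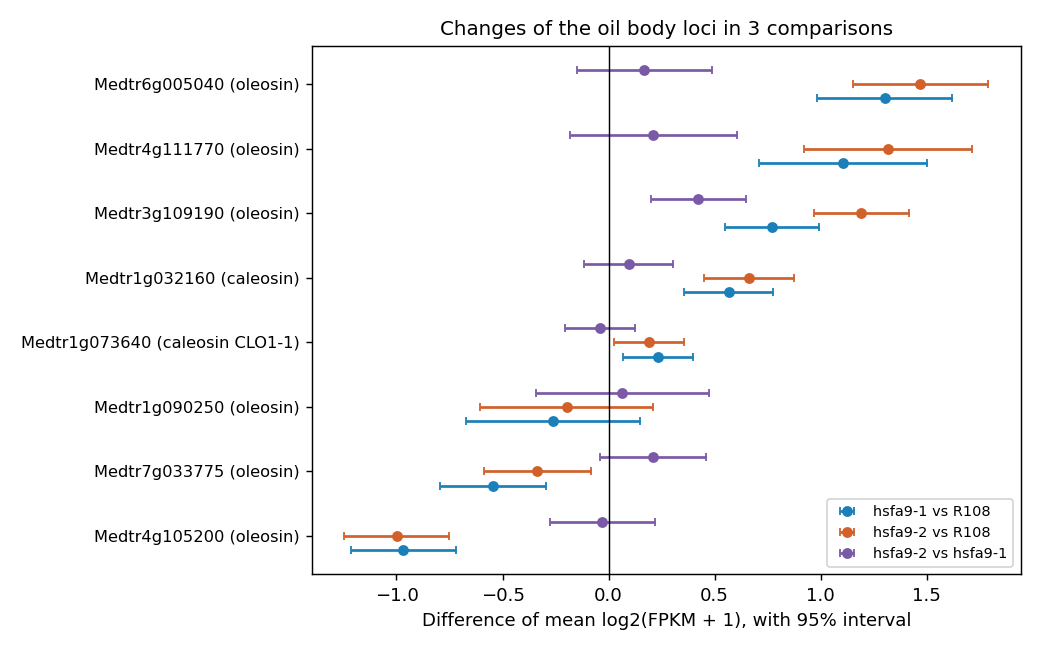
Difference of mean log2(FPKM + 1) (x axis) for each tested oil body locus (y axis) in the comparisons of each mutant with R108 and of hsfa9-2 with hsfa9-1; points are estimates and bars 95% intervals from limma. Medtr6g005040 lies at 1.30 and 1.47 and Medtr4g105200 at −0.97 and −0.998 against R108, while the intervals between the mutants reach 0 at 7 of 8 loci, all but Medtr3g109190.

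The comparison of hsfa9-2 with hsfa9-1 asks whether the lines differ from each other. By limma, 0 of 8 members were called higher and 0 lower at an adjusted p under 0.05, where 0.491% and 0.628% of all tested loci were. At an unadjusted p under 0.05 it was 1 member, Medtr3g109190, which was also the 1 member without overlap, against 19.1% of tested loci. Its mean was 1.35-fold higher in hsfa9-2 (0.42, interval 0.20 to 0.65, adjusted p = 0.0898). It passed the threshold after median centring (0.48, adjusted p = 0.0434), after rescaling on the loci outside the 100 most abundant (0.44, adjusted p = 0.0411) and without hsfa9-2 replicate 3 (0.52, adjusted p = 0.0447). Over all alternatives its adjusted p lay between 0.0411 and 0.280. For Medtr6g005040 the difference between the mutants was 0.17 (interval −0.15 to 0.49), for Medtr4g105200 −0.03 (−0.28 to 0.22), and for caleosin Medtr1g073640 −0.04 (−0.21 to 0.12). For the last 2 the sign turned after median centring (0.02 and 0.01). The missing calls do not show that the lines are alike, and differences up to these bounds lie within the intervals.

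As a sum, oil body transcripts were more abundant in the mutants. The 9 loci summed to 9781.68, 10687.17 and 10827.7 FPKM in R108, to 13931.21, 13979.25 and 14366.01 in hsfa9-1 and to 15050.81, 16237.31 and 14289.2 in hsfa9-2. The R108 sums made up 1.097% ± 0.0334 of their libraries' FPKM, those of hsfa9-1 1.502% ± 0.0112 and those of hsfa9-2 1.58% ± 0.0889. All mutant libraries lay above all R108 libraries. Oleosins summed to 4273.53 ± 475 FPKM in R108, to 6839.19 ± 615 for hsfa9-1 and to 8143.45 ± 1146.23 for hsfa9-2, and caleosins to 6158.66 ± 244.5, 7252.96 ± 439 and 7048.99 ± 199.

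**Figure D3:**
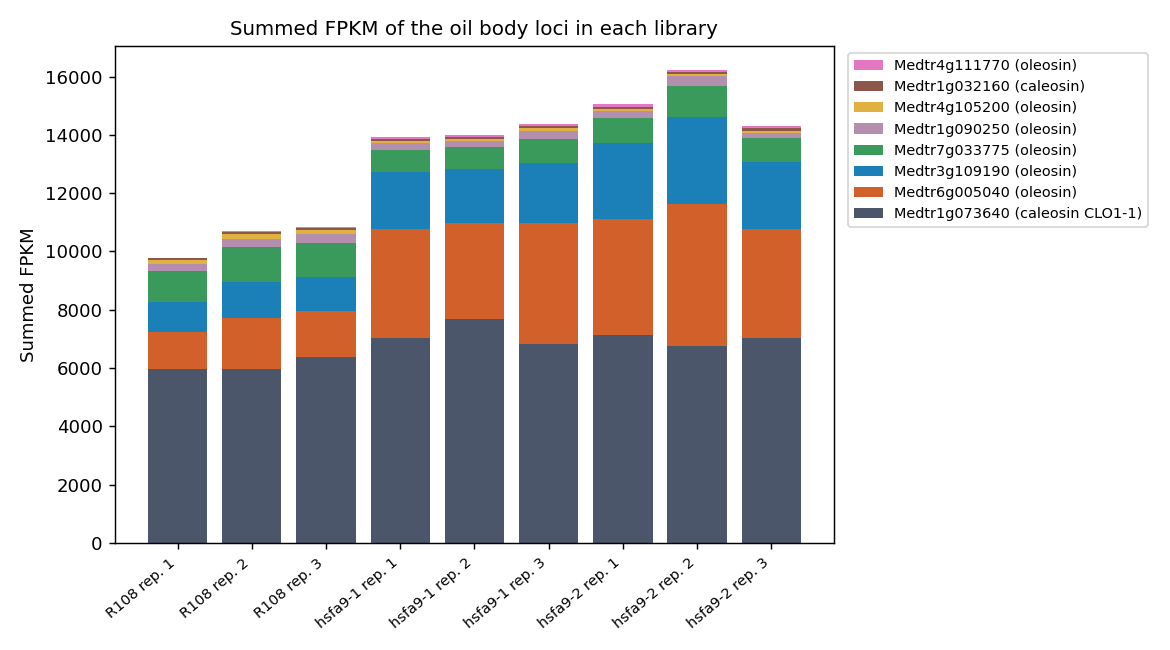
Summed FPKM (y axis, from 0) of the 8 tested oil body loci in each of the 9 libraries (x axis), with 1 colour per locus. The sums lie between 9781.68 and 10827.7 in R108 and between 13931.21 and 16237.31 in the mutants. The segments of Medtr6g005040 and Medtr3g109190 are taller in the mutants. That of Medtr7g033775 is shorter in every mutant library but hsfa9-2 replicate 2, which lies within the R108 range.

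The make-up of the oleosin pool also differed between genotypes. Medtr6g005040 held 35.4% ± 2.42 of oleosin FPKM in R108, 54.5% ± 1.096 for hsfa9-1 and 51.6% ± 0.889 for hsfa9-2. The share of Medtr7g033775 was 26.9% ± 1.18 in R108, 11.5% ± 0.374 in hsfa9-1 and 11.2% ± 0.481 in hsfa9-2. Medtr3g109190 kept a share close to that of R108 in hsfa9-1 (26.9% ± 1.046 and 28.6% ± 0.944) and held 32.4% ± 0.976 in hsfa9-2. Medtr4g105200 held 3.70% ± 0.0868 in R108, 1.18% ± 0.0868 for hsfa9-1 and 0.978% ± 0.159 for hsfa9-2. The 3 most abundant oleosins together held 89.2% ± 0.364, 94.6% ± 0.243 and 95.2% ± 0.489 of the pool.

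Ratios within a library do not depend on how libraries were scaled. They were chosen after the values were seen and are given with no test. Medtr3g109190 and Medtr7g033775 stood at a ratio of 1.002, 1.017 and 0.985 in the R108 libraries, of 2.52, 2.48 and 2.47 in hsfa9-1 and of 3.13, 2.71 and 2.84 in hsfa9-2. The ratio of Medtr6g005040 to Medtr7g033775 was 1.18, 1.47 and 1.32 in R108, 4.83, 4.47 and 4.93 in hsfa9-1 and 4.74, 4.45 and 4.65 in hsfa9-2. The mutants were above R108 in both ratios, and apart from each other only in the first. Medtr4g111770 reached 0.166, 0.2 and 0.162 of the level of Medtr4g105200 in R108, 0.857, 0.717 and 0.705 in hsfa9-1 and 1.012, 0.996 and 0.716 in hsfa9-2. The order of the means was the same in hsfa9-1 as in R108. The ranges of Medtr4g105200 and Medtr1g032160 overlapped in hsfa9-1 (80.7 ± 12.8 and 75.8 ± 2.52 FPKM), so their order is not resolved there either. In hsfa9-2 the means of Medtr1g032160 and Medtr4g105200 changed places without being resolved, since neighbouring ranges among Medtr1g032160, Medtr4g105200 and Medtr4g111770 overlapped (81.6 ± 11.4, 78.5 ± 5.25 and 71.5 ± 15.7 FPKM). The sum of oleosins relative to the sum of caleosins was 0.694 ± 0.0794 in R108, 0.948 ± 0.139 in hsfa9-1 and 1.16 ± 0.195 in hsfa9-2, and the lowest mutant library (0.805) was above the highest R108 library (0.779).

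**Figure D4:**
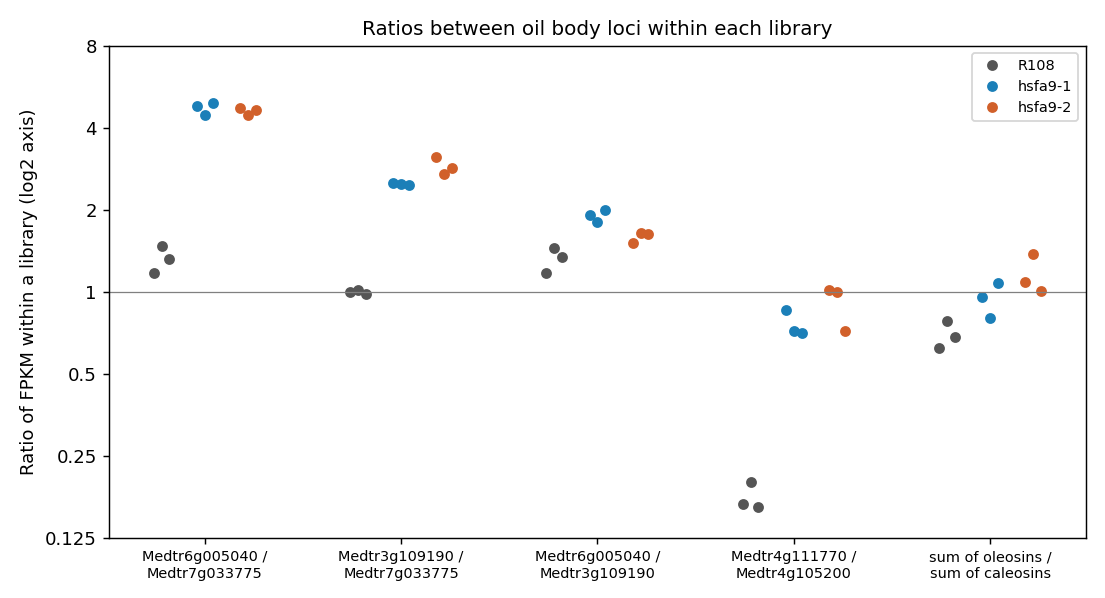
Ratios of FPKM between oil body loci within each library (y axis, log2 axis) for 4 pairs of oleosins and for summed oleosins over summed caleosins (x axis), with 1 point per library coloured by genotype. The R108 points of Medtr3g109190 over Medtr7g033775 lie between 0.985 and 1.017, and those of hsfa9-1 and hsfa9-2 between 2.47 and 3.13.

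Spread between replicates differed among members, and many members of a genotype had their lowest value in the same library. The coefficient of variation was largest in Medtr1g090250 in hsfa9-2 (29.7%) and smallest in the caleosin Medtr1g073640 in hsfa9-2 (2.84%). In R108, replicate 1 was the lowest library at 7 of 8 members, all but Medtr1g073640. In hsfa9-1, replicate 2 was the lowest at 6 of 8, and in hsfa9-2, replicate 3 at 5 of 8. Medtr1g032160 was highest in that last library (94.59 FPKM). The shares of all tested loci that were lowest in each library were not computed, so this is not shown to be particular to the members. Total FPKM moved with this in part: it was lowest in replicate 1 of R108 (922800.58) and in replicate 2 of hsfa9-1 (922986.34), while in hsfa9-2 it was lowest in replicate 1 (943842.51). The hsfa9-2 replicate 3 library had the lowest median log2(FPKM + 1) of the tested loci (3.418) and the fewest loci at 1 FPKM or more (16220) of all libraries. The part of these library traits in the spread was not tested.

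The deposited ontology and KEGG terms, looked up after the values were seen, link some members to the oil body. The word rule did not use them, but whether they were derived apart from the descriptions is not given. They are therefore not independent evidence of location. The term lipid particle was given to 5 loci, of which 3 were members (Medtr1g073640, Medtr4g105200 and Medtr6g005040). The term monolayer-surrounded lipid storage body was given to 4 loci, of which 3 were members (Medtr3g109190, Medtr4g111770 and Medtr7g033775). Loci of either term both rose and fell in the mutants. All 3 caleosins carry the KEGG entry for peroxygenase, which 4 loci hold. The other one, Medtr1g032190, described as a calcium ion-binding protein, stood at 1.75 ± 0.859 FPKM in R108, 1.14 ± 0.409 for hsfa9-1 and 1.86 ± 0.418 for hsfa9-2, with no call (adjusted p = 0.223 and 0.762). Medtr1g090250 carries none of these terms.

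Loci with the profile nearest to a member were sought among 8148 described loci of at least 10 FPKM on average. Likeness was the root mean square difference of log2(FPKM + 1), centred on each locus' mean, over the 9 libraries. The nearest to Medtr6g005040 were Medtr8g096910, described as a pathogenesis-related thaumatin family protein (0.101), Medtr4g057200, described as a lethal leaf-spot protein (0.102), and Medtr8g090315, described as a PLAT-plant-stress protein (0.104). Its nearest fellow member was the oleosin Medtr4g111770 (0.177), ahead of Medtr3g109190 (0.234). Nearest to Medtr3g109190 were the EF hand calcium-binding protein Medtr7g090450 (0.084), the UDP-glucosyltransferase Medtr5g031830 (0.119) and the pyridoxamine phosphate oxidase family locus Medtr7g030020 (0.119). Nearest to the falling Medtr4g105200 were Medtr7g037020, described as a mediator subunit (0.09), the NAD(P)-binding Rossmann-fold locus Medtr8g087310 (0.097) and the copper ion-binding protein Medtr4g102330 (0.101). Its nearest fellow member was Medtr7g033775 (0.315). The caleosin Medtr1g073640 was nearest to the ankyrin domain locus Medtr5g022050 (0.037), the Noc2p family locus Medtr6g033410 (0.04) and the Brix domain locus Medtr7g069430 (0.041), a profile with little change across the libraries.

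Other droplet protein families moved in both directions. For the lists that follow, the shares of all tested loci were 27.6% higher and 31.9% lower in hsfa9-1, and 25.8% higher and 36.5% lower in hsfa9-2, with medians of −0.04 and −0.10. Of 5 tested loci of other droplet families, 1 rose and 3 fell in hsfa9-1, and 2 rose and 3 fell in hsfa9-2, with medians of −0.31 and −0.32. The rubber elongation factor family, whose plant members include droplet coat proteins of leaves and other tissues, fell at all 3 tested loci. Medtr3g085370 stood at 849.9 ± 49.7 FPKM in R108, 599 ± 29.8 in hsfa9-1 (−0.50, adjusted p = 0.000157) and 681 ± 43.9 in hsfa9-2 (−0.32, adjusted p = 0.00308). Medtr2g013440, which carries the lipid particle term, fell from 242 ± 7.23 to 162 ± 9.68 (−0.57) and 173 ± 16.7 (−0.49). The low Medtr4g088915 fell from 8.27 ± 0.412 to 6.51 ± 0.597 (−0.31, adjusted p = 0.0272) and 4.98 ± 0.619 (−0.64), and its call in hsfa9-1 ended after median centring (adjusted p = 0.0990) or rescaling (0.0589), and without R108 replicate 1 (0.0872), R108 replicate 3 (0.0529), hsfa9-1 replicate 1 (0.0804) or hsfa9-1 replicate 3 (0.0880; 0.0199 to 0.0990 over all alternatives). The seipin Medtr7g080030, of a family that shapes droplets as they bud from the endoplasmic reticulum and chosen here after its values were seen, rose from 243 ± 10.2 to 287 ± 12.2 (0.24) and 297 ± 16.5 (0.29). The low seipin Medtr8g087730 stood at 2.51 ± 0.121 FPKM in R108 and was called higher in hsfa9-2 (3.54 ± 0.391; 0.37, adjusted p = 0.0123), and stood at 3.10 ± 0.229 in hsfa9-1 with no call (0.22, adjusted p = 0.0981). Without hsfa9-2 replicate 2, the 2 rises of this list in hsfa9-2 became 1.

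Fatty acid synthesis had 5 rises and 12 falls among 25 tested loci in hsfa9-1, beside 27.6% higher and 31.9% lower of all tested loci, and 5 rises and 15 falls in hsfa9-2, beside 25.8% and 36.5%. Its medians were −0.42 and −0.53. A biotin carboxyl carrier of acetyl-CoA carboxylase, the first committed enzyme, fell from 19.9 ± 1.49 to 2 ± 0.259 and 2.703 ± 0.852 FPKM (Medtr7g013100; −2.80 and −2.52). Other loci of this enzyme, chosen after their values were seen, changed less. The more abundant carrier Medtr7g080290 changed by −1.15 and −1.33 and the low carrier Medtr6g015020 by −1.28 and −1.26. The alpha subunit Medtr7g066870 changed by −1.10 and −1.12. Medtr1g071610 (0.448 and 0.368) and Medtr3g073860 (0.354 and 0.255) rose. The biotin carboxylase subunit Medtr8g101330 had no call (−0.04 and −0.13). The microsomal omega-3 desaturase Medtr3g464330 fell from 39.6 ± 0.01 to 14.3 ± 1.56 and 11.8 ± 0.837 (−1.41 and −1.67). The more abundant Medtr7g093200 of the same description, chosen after its values were seen, fell less. It went from 211 ± 15.4 to 157 ± 14.9 and 159 ± 31.4 (−0.43 and −0.42). The acyl carrier protein Medtr7g080760 fell from 79.6 ± 5.69 to 33.3 ± 2.33 and 32.8 ± 1.66 (−1.23 and −1.25). Loci of like description also rose, and those named here were chosen after their values were seen. The acyl carrier protein Medtr8g099920 rose from 15.27 ± 4.08 to 42.79 ± 3.227 and 45.75 ± 2.679 (1.459 and 1.554). The temperature-sensitive omega-3 desaturase Medtr4g015630 rose from 15.23 ± 1.908 to 30.95 ± 1.12 and 29.81 ± 2.481 (0.983 and 0.928). Triacylglycerol assembly had 4 rises and 3 falls among 20 tested loci in hsfa9-1 and 4 rises and 7 falls in hsfa9-2 (3 and 8 without hsfa9-2 replicate 1), with medians of 0.02 and −0.09. These counts were near or under the shares of all tested loci. Its 4 rises in hsfa9-2 became 2 without R108 replicate 1 or without hsfa9-2 replicate 3. The putative glycerol-3-phosphate dehydrogenase Medtr1g094185 rose from 10.2 ± 0.535 to 26.7 ± 0.662 and 25.9 ± 1.96 (1.31 and 1.26). Enzymes of this type can supply the glycerol backbone, but the description does not say whether this one does. A phosphatidic acid phosphatase family locus fell from 30.3 ± 2.54 to 10.45 ± 0.117 and 10.2 ± 2.03 (Medtr7g107270; −1.45 and −1.496). The type 2 diacylglycerol acyltransferase Medtr5g024990, which makes triacylglycerol and was chosen here after its values were seen, stood at 65.2 ± 3.93, 68.04 ± 3.51 and 64.8 ± 5.63 FPKM with no call (0.06 and −0.01, adjusted p = 0.533 and 0.917), and the sign in hsfa9-2 turned with median centring (0.11), with rescaling (0.05) and without R108 replicate 2 (0.03) or hsfa9-2 replicate 3 (0.06).

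Oil mobilisation had 7 rises and 5 falls among 23 tested loci in hsfa9-1 and 7 rises and 6 falls in hsfa9-2 (6 and 7 without hsfa9-2 replicate 1), with medians of 0.04 and 0.03. The rises were near the shares of all tested loci (27.6% and 25.8%) and the falls under them (31.9% and 36.5%). Glyoxysomal malate synthase, an enzyme of the glyoxylate cycle, fell from 1729.48 ± 133 to 233 ± 17.3 and 201 ± 55.2 FPKM (Medtr8g028225; −2.89 and −3.13). A long-chain acyl-CoA synthetase, of a family that activates free fatty acids, rose from 20.3 ± 1.04 to 153 ± 17.7 and 168 ± 16.9 (Medtr5g076240; 2.85 and 2.98). Other acyl-CoA synthetase loci, chosen after their values were seen, did not share a change of this size. The changes were 0.964 and 1.144 for Medtr5g008800 and −0.097 and −0.366 for Medtr3g035130. They were 0.085 and −0.014 for Medtr1g104810, which is described as peroxisomal. The descriptions of the other synthetases, Medtr5g076240 among them, do not place them in oil mobilisation. The loci described as triacylglycerol lipase SDP1, which opens oil breakdown in Arabidopsis seedlings, went opposite ways: Medtr7g090470 rose from 21.5 ± 3.04 to 43.6 ± 2.89 and 41.3 ± 0.614, and Medtr1g087300 fell from 6.10 ± 0.423 to 3.27 ± 0.296 and 2.93 ± 0.631 (both chosen after their values were seen). The word pattern also caught a 2-isopropylmalate synthase of leucine synthesis, Medtr1g116500 (0.35, adjusted p = 0.00225, and 0.23, adjusted p = 0.0195), which is counted among the rises. Its call in hsfa9-2 ended without R108 replicate 3 (adjusted p = 0.0822) or hsfa9-2 replicate 1 (0.0672), and all alternatives spanned 0.00109 to 0.0822. Of regulators, the patterns found only the ABI3-interacting loci Medtr8g010160, which fell from 13.4 ± 1.37 to 6.52 ± 0.834 and 6.22 ± 0.511 (−0.93 and −0.99), and Medtr8g010170, at 260.0 ± 3.83, 238 ± 11.1 and 224 ± 5.96 (−0.13, adjusted p = 0.0667, and −0.21, adjusted p = 0.00717). The hsfa9-2 call of the latter ended after median centring (adjusted p = 0.272, with 0.00678 to 0.272 over all alternatives). In hsfa9-1 it was called without hsfa9-1 replicate 1 (adjusted p = 0.0451), and all alternatives spanned 0.0451 to 0.457.

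**Figure D5:**
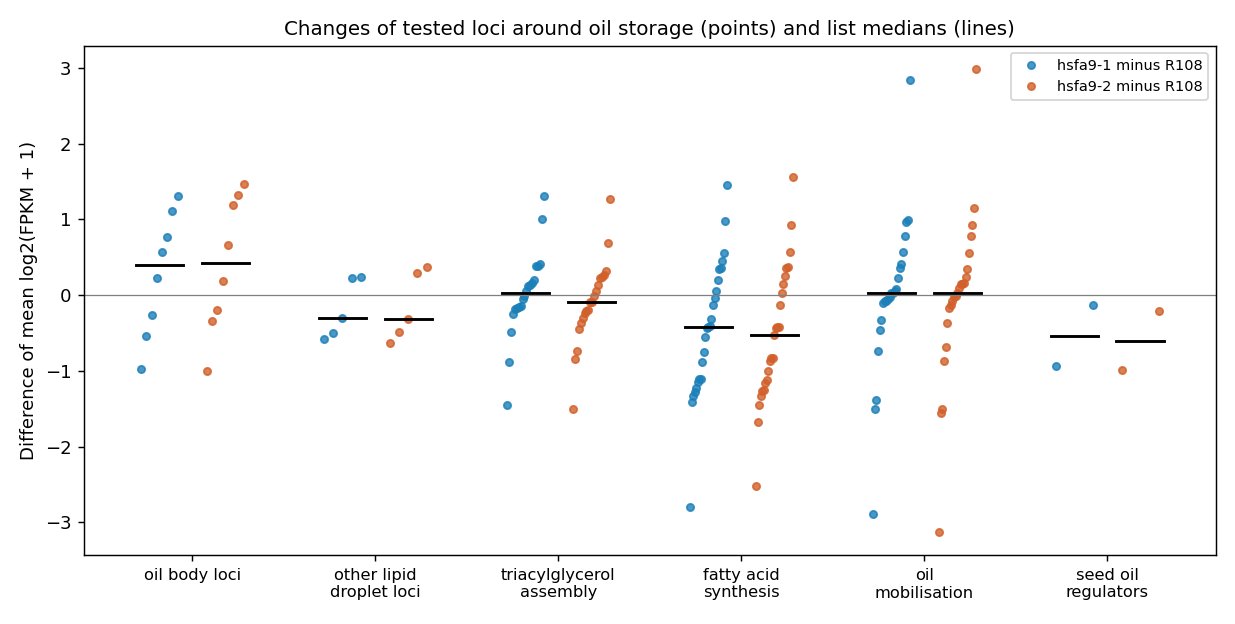
Difference of mean log2(FPKM + 1) from R108 (y axis) for the tested loci of each list (x axis) in hsfa9-1 and hsfa9-2 (points), with the list median as a line. The oil body loci have medians of 0.40 and 0.43 and fatty acid synthesis of −0.42 and −0.53, and every list holds loci on both sides of 0 except the 2 regulators.

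Summed marker levels of the seed and of other tissues are given beside these results. Mature seed markers rose at 27 and fell at 25 of 70 tested loci in hsfa9-1, beside 27.6% higher and 31.9% lower of all tested loci, and rose at 36 and fell at 24 in hsfa9-2, beside 25.8% and 36.5%. Their sum was 58522.38 to 65155.06 FPKM in R108, 61246.51 to 75380.45 for hsfa9-1 and 74576.25 to 92429.49 for hsfa9-2. The 12 seed coat loci, of which 3 reached a mean of 1 FPKM and 1 was at 0 in all libraries, summed to 40.2 to 42.1 FPKM in R108, 328 to 335 for hsfa9-1 and 350 to 473 for hsfa9-2. The 7 green tissue loci, of which 2 reached a mean of 1 FPKM and 1 was at 0 throughout, summed to 551 to 649 FPKM, 687.5 to 817 and 871 to 1068.58. The 71 nodule loci, of which 10 reached a mean of 1 FPKM and 20 were at 0 throughout, summed to 94.4 to 96.4 FPKM, 73.95 to 76.8 and 75.7 to 93.1. In each mutant 4 of 10 tested nodule loci rose and 4 fell, so their sum hides changes in both directions. Of 3 tested seed coat loci 2 rose and 0 fell in each mutant, and of 2 tested green tissue loci 2 rose. Seed coat loci are those described as chalcone synthase, anthocyanidin reductase or leucoanthocyanidin enzymes. The part of these tissues in the oil body changes was not tested.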

How the data were processed

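RNA was sequenced from mature seeds of R108, hsfa9-1 and hsfa9-2, 3 libraries each, and per the labels' protocols an average sample gave 24 M reads of 50 bp. What the authors deposited is 1 FPKM value per transcript model and library, rounded to 2 decimals. RSEM, Bowtie2, HISAT and HISAT2 are the tools listed in the submitters' processing notes. Genome build, annotation and each tool's role: not given in the sources used here. No counts were used and the mapped fragments of each library are not given, so no counting interval is given. Relative depth was estimated from the FPKM values, with the smallest positive value of a model taken as 1 fragment. The wild-type columns were matched to R108 through the study's design text.

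FPKM of 42631 models were summed to 36695 loci by dropping the model suffix. The 17508 loci that reached 1 FPKM in 3 or more libraries were tested on log2(FPKM + 1) with limma 3.58.1 (statmod 1.5.0, R 4.3.3; trended, robust moderation) in 1 fit of all 9 libraries, with Benjamini-Hochberg adjustment over all tested loci and a threshold of 0.05. A pseudocount of 1 understates changes of low loci. The p-values set each difference between genotype means against the spread between these libraries. The code was tested on simulated data.

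Members, word-pattern lists and tests were chosen with earlier results of these data known. From each list, the 2 tested loci with the lowest p in each mutant were named. Others are marked as chosen after their values were seen, which also holds for Medtr8g087730, Medtr1g116500 and Medtr1g032190. RefSeq genes (MtrunA17r5.0-ANR) were matched through protein accessions and used for names only. Alternatives were another pseudocount, no filter, median centring, rescaling, 1 model per locus, plain limma, fits of 2 groups, a replicate block and leaving out each library. Sequences were not used here.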

Additional observations from a re-analysis of the deposited data

Results flagged for a closer look

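The stearoyl-acyl-carrier desaturase Medtr5g024130, which introduces the first double bond into plastid fatty acids and belongs to the fatty acid synthesis list, differed between the mutants. It stood at 44.7 ± 2.04 FPKM in R108 seeds, 33.5 ± 1.85 for hsfa9-1 and 24.7 ± 1.89 for hsfa9-2 (mean ± SD, 3 libraries each). The difference of hsfa9-2 from hsfa9-1 was −0.42 on the log2(FPKM + 1) scale (adjusted p = 0.0284, limma; 0.0179 to 0.104 over all alternatives). The call ended with no filter (0.0694), plain limma (0.0575), only the 2 groups (0.101) or a replicate block (0.0658), and without hsfa9-1 replicate 1 (0.104), 2 (0.0555) or 3 (0.0980) or hsfa9-2 replicate 2 (0.101) or 3 (0.0834). It was named after its values were seen.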

How the results depend on the processing

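Of the counts of calls under the alternatives, 363 stayed within 1.5 times those reported and 19 moved further. Median centring gave 1 fall among oil body loci in hsfa9-2 in place of 2, and 1 rise between the mutants in place of 0, as did rescaling. With libraries left out in turn, these ranged from 1 to 3 falls and from 0 to 1 rises. Triacylglycerol assembly in hsfa9-2 had 2 rises with no filter, with the most abundant model or with only the 2 groups (2 to 3 with a library left out), and 4 falls after centring. Other droplet families in hsfa9-1 had 2 rises after centring and with plain limma, and in hsfa9-2 1 to 2 with a library left out. Regulators had 1 fall in hsfa9-2 after centring, and 1 to 2 in hsfa9-1 with a library left out. The cause was not tested.

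Signs turned only for uncalled differences. Between the mutants, Medtr1g073640 stood at 0.013 after centring (−0.076 to 0.007 with a library left out) and Medtr4g105200 at 0.024 (−0.117 to 0.093). Leaving out libraries gave −0.014 to 0.163 for Medtr1g032160 and −0.151 to 0.282 for Medtr1g090250 between the mutants, and −0.413 to 0.019 for Medtr1g090250 in hsfa9-2 against R108. Medtr5g024990 in hsfa9-2 stood at 0.114 after centring, 0.05 after rescaling and −0.068 to 0.055 with a library left out.

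Same-numbered replicates did not deviate together across the tested loci (correlations from −0.125 to 0.096 in 9 pairs), and the main fit did not pair them. These correlations cannot show whether the samples were paired, since a weak shared effect, or one at some loci only, could be missed. With a replicate block, oil body loci had 5 rises and 2 falls in hsfa9-1, 4 and 2 in hsfa9-2, and 0 calls between the mutants. Precision rests on 3 libraries per genotype, and the mapped depth of each library is not given.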
